A study of Mus musculus with 16 samples.

Results

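The 9 genes described here supply peptides to MHC class I molecules: the inducible proteasome subunits Psmb8, Psmb9 and Psmb10, the proteasome activator subunits Psme1 and Psme2, the peptide transporter subunits Tap1 and Tap2, the loading factor Tapbp, and the class I light chain B2m. They were chosen by symbol. Each was read from the probe set with the highest mean log2(intensity + 1) over the 16 Affymetrix arrays, and all 9 were among the 18194 genes analysed. The Psme2 probe set is annotated to Psme2 and to its near copy Psme2b, so its values cannot be assigned to either alone.

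The arrays measured RNA of CD4+ T cells that carry the AND T cell receptor transgenes, which recognise a moth cytochrome c peptide. Donor lymph node cells were transferred into recipients, and CD4+CD90.1+ cells were sorted 60 h later. The labelled background was B10.BR and the labelled age 6 to 8 weeks. All recipients carried TIM, a doxycycline-controlled construct for the antigen. Recipients labelled as without antigen lacked Ii-rTA, the transactivator driven by the invariant chain promoter of class II positive cells (genotype Ii-rTA-, TIM+). Recipients with transient antigen (short dox) or persistent antigen (long dox) were Ii-rTA+, TIM+. Doxycycline ran from day -1 to day 0 for transient and from day -1 to day 3 for persistent antigen, with the cells given on day 0. The recipients without antigen are titled no dox, but the treatment notes of 3 of their 5 arrays give doxycycline from day -1 to day 3 and the other 2 arrays carry no note. This group differs from the others in recipient genotype as well as antigen, and these cannot be told apart. In each of these 3 regimes recipients were injected on day -1 with PBS or FGK45.5, an agonist antibody to CD40 that activates dendritic cells, here called FGK. There were 3 arrays of no antigen with PBS, 2 of no antigen with FGK, 3 of transient antigen with PBS, 2 of transient antigen with FGK, 3 of persistent antigen with PBS and 3 of persistent antigen with FGK. No label states that replicates are separate mice, and the p-values here therefore reflect array-to-array spread, which may be technical. RNA went through 2 rounds of amplification before labelling. In such bulk RNA, fewer cells of a type and less RNA per cell cannot be told apart.

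All 11 measured T cell markers lay above the median probe set (4.37 on the log2 scale), with Cd4 at 6.98 to 8.00 and Thy1, which encodes CD90, at 7.54 to 10.27. Of markers of other cells, 3 of 7 B cell, 3 of 6 CD8 T and NK cell and 6 of 11 dendritic cell and macrophage genes had means above that median. Among them were Ms4a1 (4.45 to 7.66), Eomes (4.70 to 7.24), Cd8a (4.90 to 5.83) and Lyz2 (5.16 to 6.92). The means of Cd79a (3.13 to 3.93), Cd8b1 (3.02 to 3.97) and Itgax (3.89 to 4.62) lay below it. The 6 arrays numbered replicate 2 stood apart, with mean intensities of 83.5 to 101.4 against 106.3 to 120.6 on the other 10. The comparisons were therefore fitted without and with the replicate number as a block. Both fits used limma with Benjamini-Hochberg adjustment over all 18194 genes, and a difference was called at an adjusted p under 0.05.

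Proteasomes cut proteins into peptides in a barrel called the 20S core, whose catalytic sites are formed by Psmb5, Psmb6 and Psmb7 in most tissues. Lymphocytes, and cells exposed to interferon gamma, replace them during assembly by Psmb8, Psmb9 and Psmb10, giving the immunoproteasome. Peptides are carried by the TAP transporter into the endoplasmic reticulum, where tapasin and partner chaperones load them onto a heavy chain paired with B2m. The class I pathway is classically induced by interferons through promoter elements called ISRE and GAS.

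Promoter windows were available from RefSeq (GRCm38.p6) for 8 of the 9 genes, each of 250 bases before to 50 after the annotated start. Both strands were searched for the ISRE core GAAANNGAAA, the GAS core TTCNNNGAA and the NF-kappaB consensus, and matches did not overlap. The windows of 3 genes are shown: B2m (chr2:122147437-122147736, plus strand), Psmb8 (chr17:34197945-34198244, plus strand) and Tap1 (chr17:34187306-34187605, plus strand). Their values below tended differently, but none of the 3 was called in the fit without or with the replicate block. A link between motifs and values was not tested. The Tap1 window shares 275 bases with that of Psmb9, whose start lies 226 bases away on the opposite strand. Capitals mark motif matches.
B2m: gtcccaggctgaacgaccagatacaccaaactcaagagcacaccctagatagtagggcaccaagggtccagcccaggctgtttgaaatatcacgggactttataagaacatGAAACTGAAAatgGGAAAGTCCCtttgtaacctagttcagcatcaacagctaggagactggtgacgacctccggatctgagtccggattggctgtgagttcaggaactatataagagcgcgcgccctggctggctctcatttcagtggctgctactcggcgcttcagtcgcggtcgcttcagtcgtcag
Psmb8: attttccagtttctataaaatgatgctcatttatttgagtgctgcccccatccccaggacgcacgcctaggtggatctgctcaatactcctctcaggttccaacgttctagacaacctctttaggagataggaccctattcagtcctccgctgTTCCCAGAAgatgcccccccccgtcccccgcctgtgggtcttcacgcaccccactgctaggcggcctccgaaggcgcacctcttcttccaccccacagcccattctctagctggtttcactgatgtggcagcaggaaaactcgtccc
Tap1: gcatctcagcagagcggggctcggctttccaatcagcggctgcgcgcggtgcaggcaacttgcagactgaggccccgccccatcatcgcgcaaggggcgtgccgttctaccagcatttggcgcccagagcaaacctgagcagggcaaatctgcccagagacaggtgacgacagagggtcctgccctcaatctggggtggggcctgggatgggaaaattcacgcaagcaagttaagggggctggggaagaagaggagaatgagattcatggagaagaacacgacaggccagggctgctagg
B2m held an ISRE match (GAAACTGAAA) and an NF-kappaB match on the other strand (GGAAAGTCCC). Psmb8 held 1 GAS match (TTCCCAGAA). Outside the windows shown, Psme1 held an ISRE match on the reverse strand (TTTCGCTTTC, chr14:55578244-55578543), so the ISRE core was in 2 of 8 genes, GAS in 1 and NF-kappaB in 1. Of all 32851 windows, 3.44% held the ISRE core, 8.3% the GAS core and 8.46% the NF-kappaB consensus. The windows of Tap1, Psmb9, Psmb10, Psme2 and Tapbp held none of these letter patterns, which says nothing about binding by the factors.

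All 9 genes gave signals far above the median probe set in every array. B2m was the brightest, at 12.68 to 13.12 on the log2 scale, and varied least. Tapbp lay at 8.41 to 10.71, Psme2 at 7.56 to 9.84, Psmb8 at 7.92 to 9.86, Psmb9 at 7.62 to 9.68, Psme1 at 8.90 to 9.60, Psmb10 at 7.47 to 8.85, Tap1 at 6.72 to 8.21 and Tap2 at 6.46 to 7.97. Levels of different probe sets are not comparable as amounts. For Psmb8, Psme1, Psme2, Tap2 and Tapbp, every replicate 2 array was below every other array. The gap between the mean of replicates 1 and 3 and the mean of replicate 2 was 1.52 for Psme2, 1.46 for Tapbp and 1.22 for Psmb8, larger than any difference between groups described below for these genes. B2m had no such gap (-0.04).

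**Figure D1:**
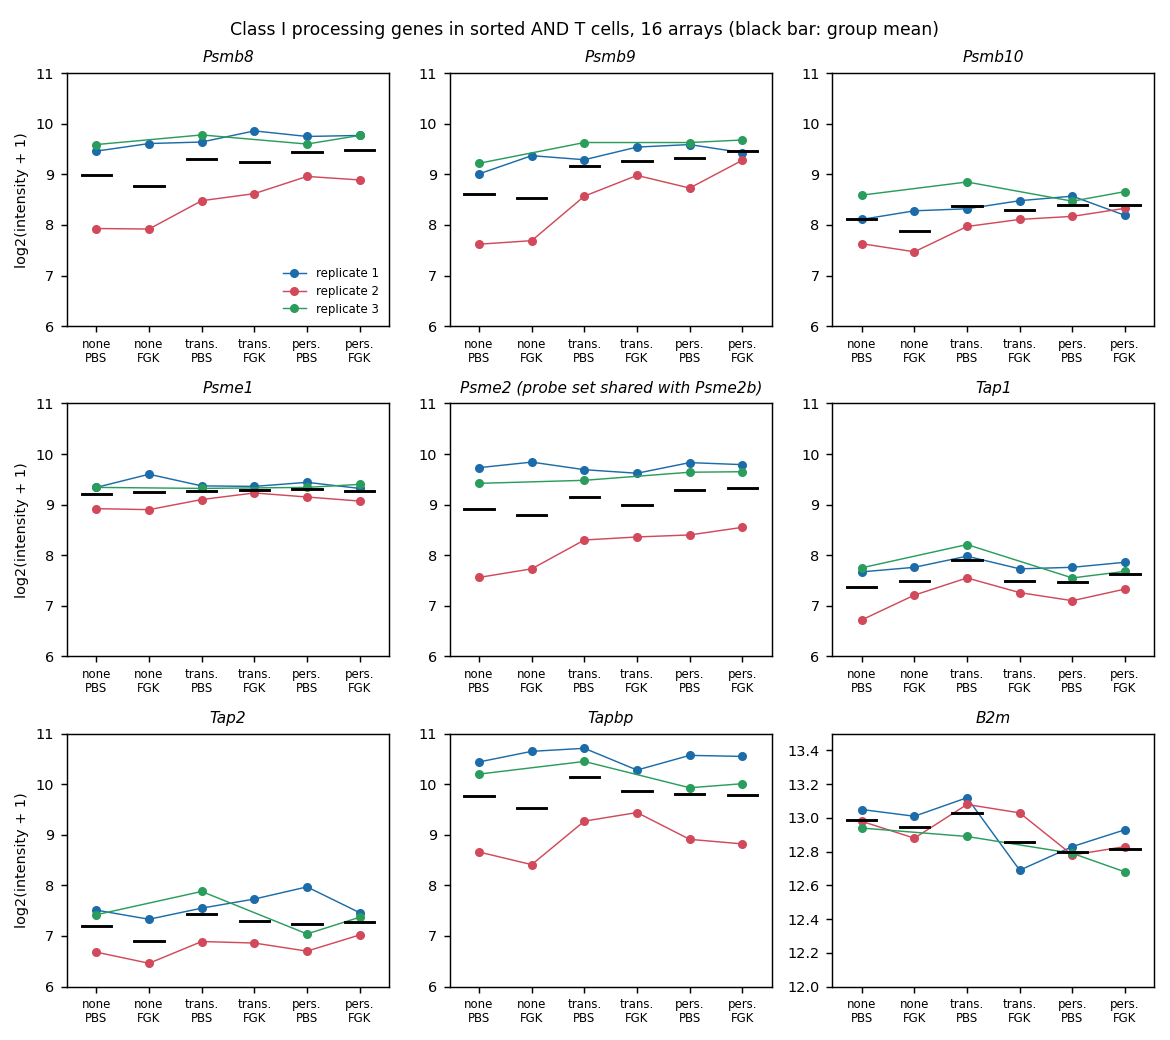
log2(intensity + 1) of the 9 genes on each of the 16 arrays by antigen regime and treatment, with lines joining arrays of the same replicate number and black bars at group means; the B2m panel has its own vertical range. Replicate 2 runs below the others for most genes, Psmb8 and Psmb9 lie lowest in replicate 2 without antigen, and B2m stays between 12.68 and 13.12.

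The first question was whether antigen changed these genes in the PBS recipients. The catalytic subunit Psmb9 tended upward with transient and with persistent antigen. It was the one gene of the 9 called in any comparison by the blocked fit, for persistent against no antigen. Without antigen its log2 values were 9.01, 7.62 and 9.22 in replicates 1, 2 and 3. They were 9.29, 8.57 and 9.63 with transient antigen and 9.59, 8.73 and 9.63 with persistent antigen. Groups overlapped because of replicate 2, but within each replicate number the persistent array was higher than the one without antigen, by 0.58, 1.11 and 0.40. The transient array was higher too, by 0.28, 0.95 and 0.41 (blocked 95% interval 0.08 to 1.01, not called). For persistent minus transient antigen the blocked interval was -0.32 to 0.62. Persistent minus no antigen was 0.70 ± 0.48 (SE, adjusted p = 0.66) without the block and 0.70 ± 0.22 (adjusted p = 0.037) with it. Blocking on the run of consecutive array numbers instead gave 0.38 (adjusted p = 0.16), and on replicates 1 and 3 alone the blocked difference was 0.49 (adjusted p = 0.037). When 1 array at a time was left out, the blocked call was kept in 11 of 16 fits. It was lost without the first or second PBS array of no antigen or any of the 3 persistent PBS arrays, with differences over the 16 fits of 0.48 to 0.83 and adjusted p up to 0.22. After cyclic loess normalization the blocked difference was 0.55 and was not called (adjusted p = 0.068). By array number, the replicate 2 arrays without antigen fell in another run than those with antigen, and no label says what a run stands for. Within replicate 2, run and antigen therefore cannot be told apart, for any gene and with PBS or FGK alike.

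For persistent against no antigen with PBS, 0 of 9 genes were called without the block (background 3.57% of all genes) and 1 of 9 with it (background 16.7%), a share near the background. At an unadjusted p under 0.05 there were 0 of 9 without the block and 2 of 9 with it, beside 26.7% of all genes in the blocked fit. The median difference of the 9 was 0.11, against -0.03 for all genes. For transient against no antigen with PBS, 0 of 9 were called in either fit, beside backgrounds of 0.126% (0.0934% higher and 0.033% lower) and 2.89%, and the median was 0.27 against 0.03 for all genes. At an unadjusted p under 0.05 the counts were 0 and 2 of 9, beside 4.64% and 15.1% of all genes.

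Psmb8, the inducible partner in the chymotrypsin-like site, had log2 values of 9.46, 7.93 and 9.59 without antigen and 9.75, 8.96 and 9.60 with persistent antigen. The higher values with antigen came mostly from replicate 2, with within-replicate differences of 0.29, 1.03 and 0.01. With the block the difference was 0.44, with a 95% interval of 0.05 to 0.83 (adjusted p = 0.12). A second, dimmer Psmb8 probe set (mean 4.99) gave 0.11 with the block (adjusted p = 0.74). Psmb10, which takes the trypsin-like site, was at 8.11, 7.63 and 8.59 without antigen and at 8.57, 8.17 and 8.47 with persistent antigen. Its blocked difference was 0.29 (interval -0.09 to 0.67, adjusted p = 0.34), and replicate 3 had the opposite sign (-0.13).

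Psme1 and Psme2 encode the subunits of PA28, a ring that opens the end of the core barrel. Psme1 was nearly flat: 9.34, 8.92 and 9.34 without antigen, 9.37, 9.10 and 9.32 with transient antigen, and 9.44, 9.15 and 9.34 with persistent antigen. Its blocked intervals were -0.24 to 0.37 for transient and -0.20 to 0.42 for persistent against no antigen, so changes larger than 0.42 lay outside them. The Psme2 probe set was at 9.73, 7.56 and 9.42 without antigen and at 9.83, 8.40 and 9.64 with persistent antigen, and replicate 2 again gave most of the difference (0.84 against 0.10 and 0.22). Its blocked difference was 0.39 (interval -0.01 to 0.78, adjusted p = 0.20).

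Tap1, the transporter subunit whose start lies beside that of Psmb9, had its highest PBS values with transient antigen. Its values were 7.67, 6.72 and 7.75 without antigen, 7.98, 7.55 and 8.21 with transient antigen, and 7.76, 7.10 and 7.55 with persistent antigen. The transient array was the highest in all 3 replicate numbers. Transient minus no antigen was 0.53 ± 0.32 (adjusted p = 1) without the block and 0.53 ± 0.16 (adjusted p = 0.087) with it. Persistent minus transient was -0.45 (interval -0.78 to -0.11, adjusted p = 0.085 with the block), and neither difference was called. Its 3 other probe sets had means of 3.21 to 3.67, below the median probe set, and give no check. The partner subunit Tap2 was at 7.51, 6.68 and 7.42 without antigen and at 7.97, 6.70 and 7.04 with persistent antigen, with within-replicate differences of both signs (0.46, 0.03 and -0.38).

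Tapbp encodes tapasin, which holds empty class I molecules beside the transporter. It was at 10.44, 8.66 and 10.20 without antigen, 10.71, 9.27 and 10.45 with transient antigen, and 10.57, 8.91 and 9.93 with persistent antigen. The transient array was the highest of the 3 within each replicate number, but the blocked difference from no antigen, 0.38 (interval -0.03 to 0.78, adjusted p = 0.39), was not called.

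With persistent antigen and PBS, B2m, Tap1 and Tapbp were lower than with transient antigen in every replicate number. B2m was the only gene of the 9 that was also lower than without antigen in every replicate number. It was at 13.05, 12.98 and 12.94 without antigen, 13.12, 13.08 and 12.89 with transient antigen, and 12.83, 12.78 and 12.79 with persistent antigen. The persistent group did not overlap either of the other PBS groups. The blocked difference was -0.19 (interval -0.45 to 0.06, adjusted p = 0.35) against no antigen and -0.23 (interval -0.48 to 0.03, adjusted p = 0.25) against transient antigen. A second bright B2m probe set (mean 12.58) gave -0.30 and -0.37, also not called (adjusted p = 0.14 and 0.075). For persistent against transient antigen with PBS, 0 of 9 genes were called in either fit (backgrounds 0.929% and 11.4%), with 0 of 9 at an unadjusted p under 0.05 without the block and 1 of 9 with it, beside 11.2% and 25.5% of all genes.

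The constitutive catalytic subunits, which the inducible ones replace, had larger differences with persistent antigen and PBS. Psmb5 was at 8.38, 7.27 and 8.61 without antigen and at 9.27, 8.77 and 9.33 with persistent antigen, so that the groups did not overlap. Psmb6 was at 8.42, 7.92 and 9.24 without antigen and 9.20, 9.12 and 9.78 with persistent antigen. Psmb7 was at 8.47, 5.96 and 7.79 without antigen and 10.05, 7.03 and 9.30 with persistent antigen, a wide spread in which replicate 2 was again lowest. All 3 rose in the blocked fit: Psmb5 by 1.04 ± 0.21 (adjusted p = 0.0012), Psmb6 by 0.84 ± 0.16 (adjusted p = 0.001) and Psmb7 by 1.39 ± 0.18 (adjusted p = 1.1e-05). None was called without the block (adjusted p = 0.28, 0.33 and 0.69). With the array run as the block the differences were 0.79, 0.67 and 1.36, and on replicates 1 and 3 alone 0.81, 0.66 and 1.55, all called. With transient antigen and PBS none of the 3 was called in either fit.

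**Figure D2:**
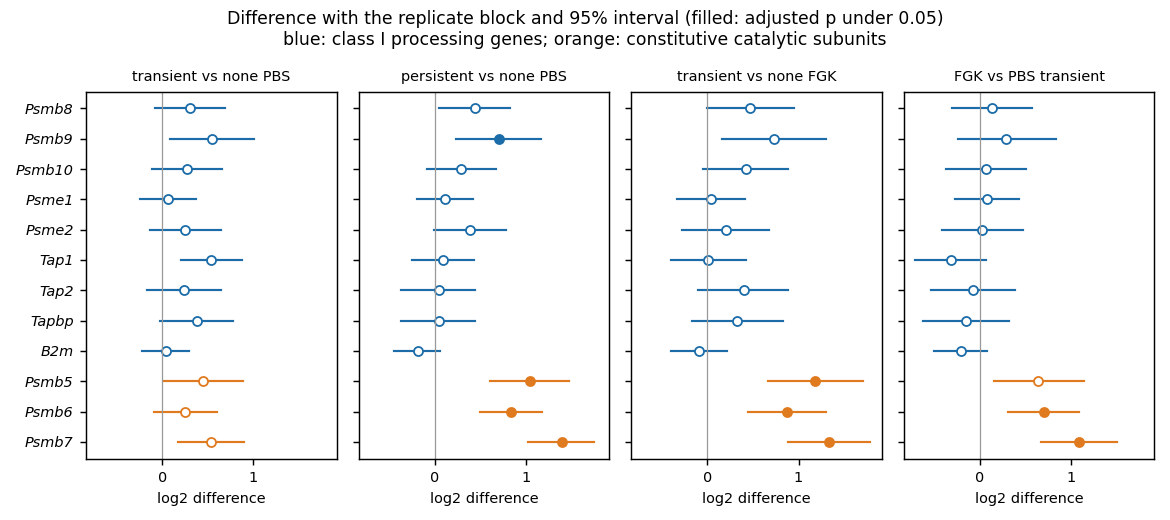
Differences in log2(intensity + 1) from the fit with the replicate block, with 95% intervals, for the 9 genes (blue) and the 3 constitutive catalytic subunits (orange) in 4 comparisons; filled points have an adjusted p under 0.05. Psmb9 is the only filled blue point (0.70, persistent against none with PBS), while Psmb5, Psmb6 and Psmb7 are filled in both the persistent against none panel and the transient against none panel with FGK, and Psmb6 and Psmb7 also in the FGK against PBS panel.

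The difference between each inducible subunit and its constitutive counterpart was then taken within each array, which removes whatever shifts both probe sets alike. The size of this difference has no meaning between probe sets, only its change between groups. Psmb8 minus Psmb5 was 1.09, 0.66 and 0.98 without antigen, 1.08, 0.42 and 0.78 with transient antigen, and 0.48, 0.19 and 0.26 with persistent antigen. The persistent arrays lay below all arrays without antigen, a change of -0.60 with an exact two-sided permutation p of 0.1, the smallest that 3 against 3 arrays allow. Entered as an additional row in the fit over all genes, it changed by -0.60 ± 0.15 with the block (adjusted p = 0.0082) and by -0.60 ± 0.27 without it (adjusted p = 0.37). The call was lost when the first persistent PBS array was left out (adjusted p = 0.056) and kept in the other 15 blocked fits that each left out 1 array.

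Psmb10 minus Psmb7 was -0.36, 1.67 and 0.81 without antigen and -1.48, 1.14 and -0.83 with persistent antigen. It was lower in each replicate number, by 1.12, 0.53 and 1.64 in size, a change of -1.09 ± 0.18 with the block (adjusted p = 0.00022). Without the block the change was -1.09 ± 0.87 (adjusted p = 0.73), and the exact permutation p was 0.3. The blocked call was kept whichever array was left out (changes of -1.31 to -0.89). It was also called against transient antigen with PBS (-0.83, adjusted p = 0.0046 with the block and 0.82 without), but not without the third persistent PBS array (adjusted p = 0.062). For Psmb9 minus Psmb6 the change with persistent antigen was -0.14 ± 0.18 (adjusted p = 0.69 with the block), which is the pair whose inducible member was itself called higher. With transient antigen and PBS no pair was called in either fit, although Psmb9 minus Psmb6 was higher in each replicate number (by 0.23, 0.28 and 0.37) and Psmb10 minus Psmb7 lower (-0.38, -0.08 and -0.32).

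**Figure D3:**
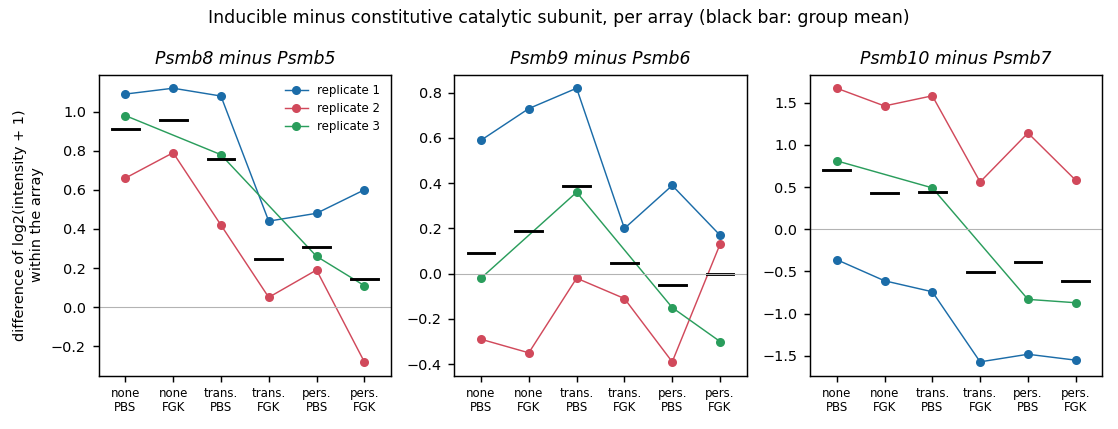
Inducible minus constitutive catalytic subunit within each array (difference of log2(intensity + 1)), by antigen regime and treatment; lines join arrays of one replicate number and black bars are group means. Psmb8 minus Psmb5 has group means of 0.91 without antigen and 0.31 with persistent antigen and PBS. The lines for Psmb10 minus Psmb7 lie at different heights, each lower with persistent antigen and PBS than without antigen and PBS.

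The rest of the proteasome was examined from lists of its subunits. With persistent antigen and PBS, 13 of 15 genes of the constitutive 20S core were called higher with the block and 0 lower, with a median of 0.85 (background 9.93% of all genes higher). Without the block 2 of 15 were higher (background 2.2%). The largest were Psmb7, the assembly chaperone Pomp (1.29, adjusted p = 5.5e-05 with the block and 0.008 without), and the outer ring subunits Psma4 (1.17) and Psma1 (1.07). Of the 19S regulator, which recognises and unfolds tagged proteins, 13 of 20 measured genes were higher with the block and 2 without, with a median of 0.68. They were led by Psmd13 (1.36) and Psmd1 (0.93) and the ATPase Psmc1 (1.16). On replicates 1 and 3 alone the blocked counts were 13 of 15 and 12 of 20. With transient antigen and PBS, 1 of 15 (0 to 2 with 1 array left out) and 0 of 20 were higher with the block (background 2.02% higher). Psme3, which forms a nuclear PA28 ring of its own and is not a classical interferon target, rose by 0.86 ± 0.18 with the block (adjusted p = 0.0021), from a mean of 5.72 to 6.58, whereas its relatives Psme1 and Psme2 were not called.

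Class I heavy chains and other loading factors moved in both directions. With persistent antigen and PBS, 4 of 11 measured genes were higher and 1 lower with the block (0 without it; background with the block 9.93% higher and 6.79% lower), with a median of -0.02. With 1 array left out the blocked counts were 2 to 4 higher, fewest without the second PBS array of no antigen, and 1 to 3 lower. The higher ones were Pdia3 (1.32, adjusted p = 0.00017), the disulphide isomerase of the loading complex, the peptide-trimming enzyme Erap1 (0.65, adjusted p = 0.0072), the tapasin relative Tapbpl (0.58, adjusted p = 0.017), and the chaperone Calr (0.53, adjusted p = 0.046). H2-K1, a class I heavy chain, fell by 0.88 ± 0.15 (adjusted p = 0.00022 with the block, 0.13 without), from 9.80 to 8.92. Of its 3 other probe sets, 2 were called lower (-0.80 and -0.53) and 1 was not (-0.35, adjusted p = 0.23). Class I genes are near copies and differ between strains, so this signal may include related chains. Nlrc5, a transactivator of class I genes, was 8.48 with transient and 7.55 with persistent antigen (-0.93, adjusted p = 0.0018 with the block, 0.22 without).

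**Figure D4:**
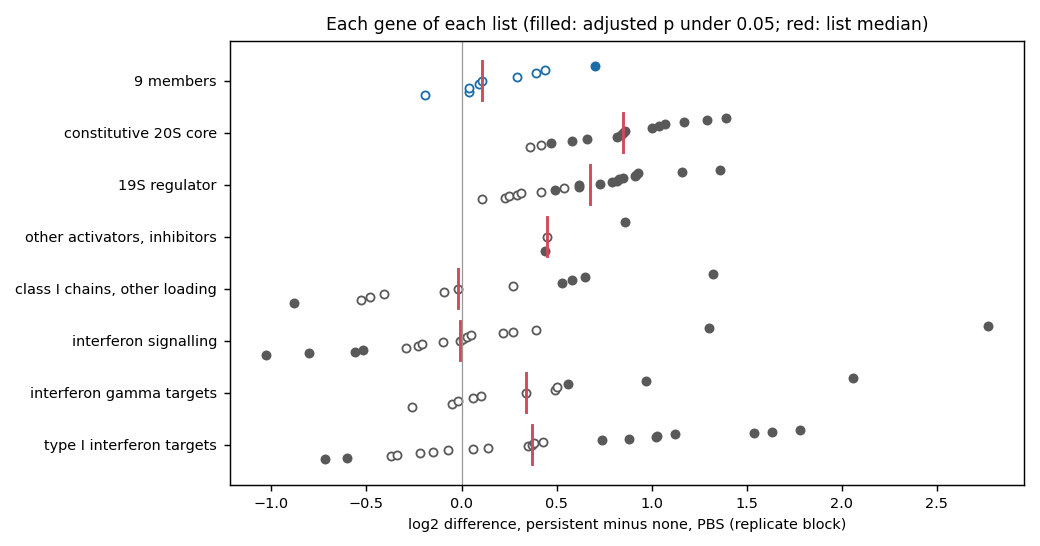
Difference in log2(intensity + 1) between persistent antigen and no antigen with PBS, from the fit with the replicate block, for every measured gene of each list; filled points have an adjusted p under 0.05 and red lines are list medians. The 9 genes (blue, median 0.11) lie around and above 0, the constitutive 20S core (median 0.85) and the 19S regulator (median 0.68) lie to the right, and the class I and interferon lists spread to both sides.

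Interferon genes were examined because the 9 are interferon targets. Ifng itself rose from a mean of 5.11 to 7.88 with persistent antigen and PBS (2.77 ± 0.39, adjusted p = 3.2e-05 with the block, 0.26 without). Of the 17 measured interferon signalling genes, 2 were higher and 4 lower with the block, and 1 and 1 without it. The backgrounds for this comparison were 9.93% higher and 6.79% lower with the block, and 2.2% and 1.36% without it. Besides Ifng, the factor Irf8 rose by 1.30 (adjusted p = 6.8e-05 with the block, 0.042 without). Ifngr2, a chain of the interferon gamma receptor, fell by 1.03 (adjusted p = 0.00014 with the block, 0.0069 without), from 5.11 to 4.08, and Ifnar1, of the type I receptor, fell by 0.80 (adjusted p = 0.0043 with the block). Of 11 interferon gamma targets outside the 9, 3 were higher with the block and 0 without it: the guanylate binding proteins Gbp3 (2.06, adjusted p = 1.2e-07) and Gbp2 (0.56), and the GTPase Iigp1 (0.97). The count was 1 to 4 with 1 array left out, lowest without the first PBS array of no antigen. The lower count in interferon signalling was likewise 1 to 4. Of 21 type I interferon targets, 8 were higher and 2 lower with the block (6 to 8 and 0 to 2 with 1 array left out), and 0 without it. With transient antigen and PBS 7 of 21 were higher with the block (background 2.02%) and 0 without it, led by Rsad2 (1.83, adjusted p = 0.0038 with the block) and Ifit1 (1.36), both antiviral genes, but 1 of 21 with the block without the first transient PBS array.

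Among the marker lists, the summed level of the 6 CD8 T and NK cell markers was 7.46 to 7.90 on the log2 scale in the arrays without antigen and 6.91 to 7.56 with antigen. The 7 B cell markers summed to 7.60 to 8.56 without antigen and 6.81 to 7.94 with antigen. None of the markers was at 0 on these arrays. The part of these lists in the differences with antigen was not tested.

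The next question was whether antigen had the same associations when recipients also received FGK. For transient against no antigen, 0 of 9 genes were called in either fit (backgrounds 0.572% and 14%). The medians were 0.33 for the 9 and -0.01 for all genes. Psmb9 was at 9.37 and 7.69 without antigen, 9.54 and 8.98 with transient antigen, and 9.43, 9.28 and 9.68 with persistent antigen. Replicate 2 again carried most of the difference, with 1.28 against 0.18 in replicate 1 for transient antigen. Its blocked differences were 0.73 (adjusted p = 0.087) for transient and 0.74 (adjusted p = 0.056) for persistent against no antigen. For persistent against no antigen with FGK, 0 of 9 were called in either fit (backgrounds 2.37% and 16.4%), and leaving out single arrays gave 0 to 2 of 9 with the block, the 2 being Psmb8 and Psmb9 without the first FGK array of the group without antigen. Psmb9 was also called there without PBS array 2 or 3 of no antigen or the first persistent FGK array. For transient antigen it was called without the first FGK array of no antigen or the second persistent FGK array. B2m was at 13.01 and 12.88 without antigen, 12.69 and 13.03 with transient antigen, and 12.93, 12.83 and 12.68 with persistent antigen, so the groups overlapped. Its blocked difference was -0.09 in both comparisons with no antigen (adjusted p = 0.78 and 0.72). After cyclic loess with the block it was -0.40 for transient and -0.42 for persistent antigen, both called (adjusted p = 0.036 and 0.018).

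The constitutive subunits were again called with the block and FGK. For transient against no antigen, Psmb5 rose by 1.18 (adjusted p = 0.003), Psmb6 by 0.87 (adjusted p = 0.0054) and Psmb7 by 1.34 (adjusted p = 0.00028), and none was called without the block (adjusted p = 0.43, 0.56 and 0.83). With the block the 20S core had 13 of 15 genes higher and the 19S regulator 16 of 20 (background 10.5% higher), and without it 0 and 0. These counts fell to 5 and 4 when the second FGK array without antigen was left out. Psmb8 minus Psmb5 was 1.12 and 0.79 without antigen, 0.44 and 0.05 with transient antigen, and 0.60, -0.28 and 0.11 with persistent antigen. With the block it changed by -0.71 (adjusted p = 0.013) and -0.81 (adjusted p = 0.0025). Psmb10 minus Psmb7 changed by -0.92 (adjusted p = 0.0078) and -0.97 (adjusted p = 0.0027). Without the block none of these was called (adjusted p = 0.49 and 0.24 for Psmb8 minus Psmb5, 0.87 and 0.69 for Psmb10 minus Psmb7). The smallest exact permutation p is 0.333 with 2 against 2 arrays (transient) and 0.1 with 3 against 2 (persistent). The permutation test could therefore not call these changes. The blocked call of Psmb8 minus Psmb5 for transient antigen was lost without the second FGK array of no antigen or the first of transient antigen (highest adjusted p = 0.14), and that for persistent antigen without the second FGK array of no antigen (0.053). That of Psmb10 minus Psmb7 for transient antigen was lost without the first FGK array of no antigen or either transient FGK array (highest adjusted p = 0.064). For persistent against transient antigen with FGK, 0 of 9 genes, 0 of 3 constitutive subunits and no pair were called in either fit (backgrounds 0.0055% and 0.0769%).

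The last question was what FGK did within each antigen regime. None of the 9 genes was called in any regime in either fit. The background was 0% without and 0.0055% with the block where there was no antigen, 0.638% (0.522% higher) and 10.5% with transient antigen, and 0% in both fits with persistent antigen. At an unadjusted p under 0.05 the counts of the 9 were 0 with no antigen, 0 with transient and 0 with persistent antigen in the blocked fit, beside 5.3%, 20.2% and 2.66% of all genes. Without the block they were 0 in each regime, beside 1.75%, 9.29% and 0.605%. With transient antigen the blocked differences of the 9 ran from -0.32 for Tap1 (interval -0.71 to 0.07) to 0.29 for Psmb9 (interval -0.24 to 0.83). Tap1 was 7.98, 7.55 and 8.21 with PBS and 7.73 and 7.26 with FGK, lower in both shared replicate numbers. In recipients with persistent antigen the intervals of all 9 lay within -0.41 and 0.62.

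With transient antigen, constitutive proteasome genes were called higher with FGK than with PBS in the blocked fit. Psmb6 rose by 0.70 (adjusted p = 0.019) and Psmb7 by 1.09 (adjusted p = 0.0013), while Psmb5 was at 0.64 (interval 0.15 to 1.14, adjusted p = 0.10). Without the block none of the 3 was called (adjusted p of 0.96 to 1). Psmb10 minus Psmb7 was -0.74, 1.58 and 0.49 with PBS and -1.57 and 0.56 with FGK, a blocked change of -1.02 ± 0.21 (adjusted p = 0.0031). The blocked call was kept whichever array was left out (-1.11 to -0.93), but without the block the change was -0.95 ± 0.97 (adjusted p = 0.97). Of the 20S core 5 of 15 genes were higher and of the 19S regulator 11 of 20 with the block (background 7.58% higher), 1 and 2 without the first transient FGK array, and 0 and 0 without the block. With no antigen and with persistent antigen, 0 of 15 and 0 of 20 were called with the block. Tests of the difference of the FGK effect between regimes called none of the 9, none of Psmb5, Psmb6 and Psmb7 and no pair in either fit. With the block, 3.69% of all genes were called for transient minus no antigen, 1.79% for persistent minus transient and 0% for persistent minus no antigen. The largest of these for a pair was 0.79 (adjusted p = 0.22 with the block) for Psmb10 minus Psmb7, persistent minus transient. The FGK effect is thus not shown to differ between regimes for the 9, for Psmb5, Psmb6 and Psmb7 or for the pairs. Of the other 20S and 19S genes, Psma5, Psmc1, Psmc3, Psmd1 and Psmd7 were called for transient minus no antigen with the block. Psmd1 was also called for persistent minus transient. None of them was called without the block.

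Within the 9, the 3 inducible catalytic subunits and Psme2 were correlated over the 16 arrays once each gene was centred within its replicate number. Pearson's r was 0.91 for Psmb8 with Psmb9, 0.90 for Psmb8 with Psmb10 and 0.88 for Psmb9 with Psmb10. For Psme2 it was 0.91 with Psmb9, 0.85 with Psmb8 and 0.73 with Psmb10. Tap1 was highest with Tapbp (0.61), followed by Tap2 (0.54), and was at 0.42 with Psmb9. Tap2 was highest with Psmb10 (0.75). B2m was negative with the 3 catalytic subunits (-0.40 to -0.29) and at 0.56 with Tapbp. These values describe 16 arrays in 6 groups that share amplification and normalization. Centring does not remove the wider range within replicate 2, where run and antigen cannot be told apart. Psmb9 ran from 7.62 to 9.28 in replicate 2 against 9.01 to 9.59 in replicate 1. Psme2 ran from 7.56 to 8.55 against 9.62 to 9.84. Whether the genes correlate within replicates 1 or 3 alone was not tested. The genes outside the 9 whose values were most like the mean of the 9, among 11239 candidates above the median probe set, were Naa60, Mocs2 and Nt5c (r = 0.95) and Coro1a and Coro1b (r = 0.94). Coro1a, an actin regulator of lymphocytes, had group means of 8.90 without antigen, 9.64 with transient and 9.38 with persistent antigen and PBS. Transient minus no antigen was 0.74 (adjusted p = 0.83 without the block and 0.045 with it). With the array run as the block it was 0.47 (adjusted p = 0.11). Persistent minus no antigen was not called in either fit.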

How the data were processed

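The 16 arrays came as 1 deposited table of linear intensity values per probe set. They had been background corrected, normalized and summarised by the authors with RMA, per the submitters' processing notes, and RNA was amplified in 2 rounds, per the labels' protocols. Amplification and normalization to a shared distribution can compress differences. Values were used as log2(intensity + 1). Of 45101 probe sets, 34945 had 1 gene symbol, 932 several and 9160 none (64 were array controls), and each of 18193 genes was read from its brightest probe set, with the shared Psme2 probe set added. No read depth applies, and the number of arrays limits the precision.

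limma 3.58.1 (R 4.3.3) was fitted over 6 group means with an intensity trend, the main fit having no block, and contrasts were adjusted by Benjamini-Hochberg (threshold 0.05). Replicate numbers pair the arrays: all 36 pairs of arrays from different groups with the same number correlated at 0.48 to 0.81 in their deviations from group means, and 70 pairs with different numbers had a median of -0.53. This pairing comes from the data, not the labels. Differences of subunit pairs were tested by exact permutation and, chosen after seeing the data, as rows of the same fit. Named genes were the 9, Psmb5, Psmb6, Psmb7, the 5 genes most like the 9, and up to 4 called genes of largest difference per list. Calr, the fifth called gene of its list, was named after its value was seen. The members and lists were chosen with earlier results of these data known, and some genes of the lists were not analysed here. Alternatives were another pseudocount (16), cyclic loess, mean of probe sets, dim genes left out, no trend, compared groups alone, array run or replicate as block, and each array left out. Simulated data for persistent against no antigen with PBS (18194 genes, 200 changed) were built with the replicate effects and spread of the blocked fit. Log2 changes of 1 were recovered in 32% without and 80% with the block, and changes of 0.5 in 4% and 18%. False calls numbered 0 without and 7 with the block. The simulation contains the block by construction, so it cannot say which fit suits the measured arrays.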

Additional observations from a re-analysis of the deposited data

Results flagged for a closer look

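With the replicate block, the effect of FGK in recipients with transient antigen differed from its effect without antigen for 9 listed genes, none of which is among the 9 class I genes, and none passed without the block (adjusted p of 0.72 to 1). Of all 18194 genes, 3.69% were called in this comparison with the block. Whether the lists hold a larger share of calls than other genes was not tested. The proteasome genes were Psme3 (difference of the 2 effects 1.44 ± 0.29 SE, adjusted p = 0.01), Psmd1 (1.35, adjusted p = 0.0049), Psmd7 (1.30, adjusted p = 0.018), Psmc3 (1.26, adjusted p = 0.013), Psmc1 (1.14, adjusted p = 0.026) and Psma5 (0.97, adjusted p = 0.046). The loading factor Pdia3 was at 1.28 (adjusted p = 0.04). The receptor chain Ifnar2 was at -0.94 (adjusted p = 0.049) and the interferon target Rsad2 at -1.98 (adjusted p = 0.045). For persistent minus transient antigen, the effect of FGK on Psmd1 differed by -0.96 (adjusted p = 0.039 with the block, 1 without). There 1.79% of all genes were called with the block.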

How the results depend on the processing

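Without a replicate block the count of the 9 genes past the threshold was 0 in all 12 comparisons under each alternative that kept the unblocked fit, including each array left out (0 to 0). With the replicate block it was 1 for persistent against no antigen with PBS (Psmb9) and 0 in the other 11, and with the array run as block 0 in all 12. Cyclic loess with the replicate block, chosen after seeing the data, left that Psmb9 difference uncalled (adjusted p = 0.068) and gave 1 for transient and 1 for persistent against no antigen with FGK (B2m in both, at -0.40 and -0.42, adjusted p = 0.036 and 0.018). Replicates 1 and 3 alone with the block, also chosen afterwards, gave 1 for persistent against no antigen with PBS (Psmb9) and 1 for FGK against PBS with transient antigen (B2m, -0.40, adjusted p = 0.02). Under this setting no antigen with FGK and transient antigen with FGK each hold 1 array, so the B2m call rests on an arm of 1 array assumed to vary like the other groups. Cyclic loess moved the median of all genes by under 0.1 in each comparison, but that median does not show shifts of single genes. B2m, at -0.09 with the block in both of these FGK comparisons before loess, moved further. No called value reversed.

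Exact permutation could not call any change of a subunit pair at 0.05. Its smallest p is 0.1 with 3 arrays against 3 or 2, and 0.333 with 2 against 2. The replicate block called Psmb8 minus Psmb5 for persistent against none with PBS (-0.60), transient against none with FGK (-0.71) and persistent against none with FGK (-0.81), and Psmb10 minus Psmb7 for these (-1.09, -0.92 and -0.97), for persistent against transient with PBS (-0.83) and for FGK against PBS with transient antigen (-1.02). The array run block gave -0.56, -0.66 and -0.76 for Psmb8 minus Psmb5, with -0.45 (adjusted p = 0.048) for persistent against transient with PBS, and -1.22, -1.11, -1.14, -0.83 and -1.03 for Psmb10 minus Psmb7. Replicates 1 and 3 with the block called Psmb8 minus Psmb5 for persistent against none (-0.66) and against transient (-0.55) with PBS, Psmb9 minus Psmb6 for FGK with transient antigen (-0.64), and Psmb10 minus Psmb7 at -1.38 and -1.03 for persistent against none and against transient with PBS, and at -0.96, -1.06 and -0.98 for transient against none with FGK, persistent against none with FGK, and FGK with transient antigen. The calls at -0.64, -0.96, -1.06 and -0.98 likewise rest on arms of 1 array. The cause of these differences between fits was not tested.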
